A study of Mus musculus with 20 samples.

Results

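Gene expression was compared between untreated induced presomitic mesoderm (iPSM) and untreated mouse embryonic stem cells (ESC), using the 10 libraries, of 20 in the study, that were made without doxycycline. The members were taken from the library labels: 5 iPSM and 5 ESC libraries, each a separate line or clone. The study asks how the circadian factors CLOCK and BMAL1 act on the segmentation clock of mouse embryonic organoids, and the other 10 libraries are the same lines after doxycycline (500 ng/mL for 6 hours in ESC, 1000 ng/mL for 2 hours in iPSM). The ESC group holds a control KY1.1 line, tetO-Clock/Bmal1 clones 1 and 7 and tetO-Clock/Bmal1DN clones 5 and 6. The iPSM group holds colonies from a control pHes7-luc line, tetO-Clock/Bmal1 clones 12 and 20 and tetO-Clock/Bmal1DN clones 7 and 19. All iPSM libraries descend from E14TG2a cells with a luciferase reporter under the Hes7 promoter, and all ESC libraries from KY1.1 cells. The difference between the cell types and the difference between the parental lines therefore cannot be told apart. The transgenes, which doxycycline switches on, are present but uninduced in 8 of the 10 libraries. Each clone is 1 line of 1 parental line, so a p-value measures the spread between these libraries only. Values per library are listed in the orders just given, as counts in each 1000000 of a library total scaled with TMM factors (CPM), and means are ± SD with n = 5 in each group.

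Presomitic mesoderm is the tissue at the tail end of the vertebrate embryo from which the somites are cut off in turn. It forms from primitive streak and caudal epiblast cells under Wnt and FGF signals, and Brachyury (T), Tbx6 and Msgn1 are the transcription factors that set up its fate. Its segmentation clock is a loop in which Notch signalling drives the repressor Hes7, which shuts off its own gene. Stem cells are kept undifferentiated by Pou5f1, Nanog and Sox2 and lack this clock.

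The promoters of 4 genes that define presomitic mesoderm and were higher together in iPSM are shown first, because Wnt and Notch signals are known to reach these genes through TCF/LEF and RBPJ. Each window holds the 200 bases from 250 to 51 before the gene's start, read on the gene's strand, from RefSeq on GRCm38.p6. Capitals mark CTTTGA or its reverse TCAAAG, a core of TCF/LEF sites, and TGGGAA or its reverse TTCCCA, a core of RBPJ sites. The motifs were searched on both strands and do not overlap each other here.
T, chr17:8434173-8434372, plus strand: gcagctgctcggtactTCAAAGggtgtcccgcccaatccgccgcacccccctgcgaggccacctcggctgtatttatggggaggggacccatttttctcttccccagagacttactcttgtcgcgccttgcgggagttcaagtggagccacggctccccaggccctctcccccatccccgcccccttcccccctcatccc
Msgn1, chr12:11208999-11209198, minus strand: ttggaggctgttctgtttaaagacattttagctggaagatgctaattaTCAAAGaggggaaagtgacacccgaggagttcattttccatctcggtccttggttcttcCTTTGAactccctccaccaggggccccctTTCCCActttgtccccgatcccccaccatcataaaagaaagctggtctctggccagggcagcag
Tbx6, chr7:126781233-126781432, plus strand: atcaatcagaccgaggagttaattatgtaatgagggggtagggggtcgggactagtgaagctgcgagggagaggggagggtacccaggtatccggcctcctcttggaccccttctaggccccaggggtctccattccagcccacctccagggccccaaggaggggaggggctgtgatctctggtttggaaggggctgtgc
Hes7, chr11:69120203-69120402, plus strand: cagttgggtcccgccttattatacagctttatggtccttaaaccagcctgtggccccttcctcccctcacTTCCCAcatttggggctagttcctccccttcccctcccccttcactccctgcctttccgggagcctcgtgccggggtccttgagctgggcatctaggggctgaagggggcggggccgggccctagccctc
The T window held 1 TCAAAG, 234 bases before the start. The Msgn1 window held 2 matches to the TCF/LEF core, 202 and 143 bases before the start, and 1 TTCCCA at 114. The Hes7 window held 1 TTCCCA at 180, and the Tbx6 window held neither motif. Of all 32851 RefSeq windows of this length, 11.8% held the TCF/LEF core and 17.9% the RBPJ core. Among the 34 genes of the primitive streak and presomitic lists with a window, 7 (20.6%) held each motif, against 13.6% and 20.2% of 27025 genes. These matches describe the letters in the windows and do not show binding.

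A library-wide check came before the gene results. Total counts ran from 42723738 to 57299360 in ESC and from 38184055 to 47664485 in iPSM, and the groups overlapped. In the iPSM control library 38456 of 55421 features had reads, far more than the 27816 to 29862 of the other iPSM and the 24268 to 29358 of the ESC libraries. Genes of olfactory and vomeronasal receptors, which neither cell type is known to use, took 181 of each 1000000 counts there and at most 45.3 elsewhere. Results are therefore also given without that library where a gene's call changes, its fold moves by over 1.5 times, or a list's count moves by 2 genes or more. Mitochondrially encoded features took 0.348 to 0.456% of counts in ESC and 0.666 to 1.01% in iPSM (exact two-sided permutation test, p = 0.00794, the smallest that 5 against 5 libraries allow, adjusted p = 0.0198 over 5 library measures). The first principal component held 78.0% of the variance and separated the cell types.

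Every defining marker examined separated the cell types. Pou5f1, the POU factor that holds pluripotency, was at 923, 859.7, 784, 888 and 787 CPM in the ESC libraries and at 91.03, 163, 184, 175 and 164 CPM in the iPSM libraries. The groups did not overlap, and the iPSM control library was the lowest of all (log2 fold change -2.45, SE 0.17, adjusted p = 6.51e-08, edgeR quasi-likelihood test, Benjamini-Hochberg). Nanog, another pluripotency factor, was at 123, 137, 92.8, 129 and 94.1 CPM in ESC and at 24.5, 49.6, 33.5, 60.9 and 46.4 CPM in iPSM. Its iPSM mean was 2.68-fold lower, again without overlap (log2 fold change -1.42, SE 0.22, adjusted p = 6.57e-05, edgeR). Without the iPSM control library the log2 fold change was -1.26, and Nanog was no longer beyond 2-fold (adjusted p = 0.0727 against a 2-fold change, edgeR). Sox2 was at 199, 155, 163, 195.9 and 146 CPM in ESC and at 24.7, 28.8, 30.4, 25.4 and 25.8 CPM in iPSM, where the 5 libraries lay close together (log2 fold change -2.67, SE 0.11). Because these are bulk samples, a mixture with some undifferentiated cells and a lower level in every cell cannot be told apart. Zfp42, Esrrb and Klf4, naive stem cell factors, had log2 fold changes of -3.51, -2.61 and -2.66.

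T, the Brachyury factor, was at 17.4, 12.8, 40.9, 6.95 and 8.63 CPM in ESC and at 352, 463, 505, 526 and 570.1 CPM in iPSM. All iPSM libraries lay above all ESC libraries, and ESC clone 7 was the highest of the ESC group (log2 fold change 4.80, or 5.39 without that clone, SE 0.45, adjusted p = 9.53e-07, edgeR). Hes7, the clock repressor, was at 0.242, 0.179, 0.0785, 0.0517 and 0.0705 CPM in ESC, 28 counts in all, and at 22.98, 6.99, 19.4, 15.2 and 17.8 CPM in iPSM, 3883 counts. Clone 12 was the lowest of the iPSM libraries, still far above every ESC library (log2 fold change 7.01, SE 0.43, adjusted p = 3.26e-08, edgeR). The reporter with the Hes7 promoter is present in the iPSM lines only, and its part in this count was not tested. Tbx6, which commits cells to the paraxial fate, was at 0, 0.298, 0.275, 0.439 and 0.165 CPM in ESC and at 67.1, 19.7, 49.8, 56.1 and 50.2 CPM in iPSM (log2 fold change 7.67, SE 0.49). Msgn1, a bHLH factor of the posterior presomitic mesoderm, was at 0, 0, 0.0589, 0.0258 and 0.0705 CPM in ESC and at 48.5, 19.5, 32.5, 58.96 and 62.97 CPM in iPSM (log2 fold change 10.36, SE 0.53). Its group totals were 7 and 10525 counts, and 2 ESC libraries had no read over it. Without ESC clones 6 and 7 (Clock/Bmal1DN clone 6 and Clock/Bmal1 clone 7) its log2 fold change was 12.05.

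Hprt marks the parental line rather than the cell type, since E14TG2a is known to be HPRT-deficient. It was at 102, 152, 154, 138 and 146 CPM in ESC and at 1.46, 1.44, 1.21, 1.56 and 1.52 CPM in iPSM (log2 fold change -6.59, SE 0.15). The labelled parental line and this gene went together in all 10 libraries.

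**Figure D1:**
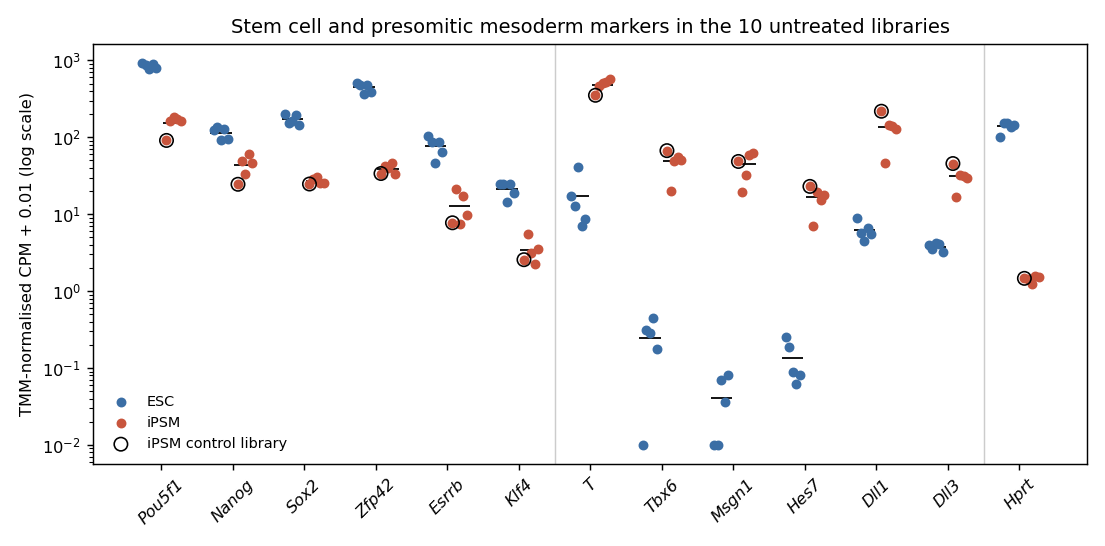
CPM (plus 0.01, log axis) of 6 stem cell markers, 6 presomitic mesoderm markers and Hprt in each library, with blue points for ESC, red points for iPSM, bars for group means and a ring around the iPSM control library. The groups do not overlap for any of the 13 genes, and iPSM clone 12, the second red point, is low for Tbx6, Msgn1, Hes7, Dll1 and Dll3.

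Across the genome the cell types differed broadly. Of 20047 features tested, 7145 (35.6%) were higher and 7179 (35.8%) lower in iPSM at an adjusted p under 0.05, and the median log2 fold change of all tested features was 0.02. A test against a 2-fold change (glmTreat) called 3215 (16.0%) higher and 2930 (14.6%) lower. Without the iPSM control library 7062 of 20372 (34.7%) were higher and 7322 (35.9%) lower, and 3054 (15.0%) and 3128 (15.4%) were beyond 2-fold. The 2 fits shared 13756 calls, with none of opposite sign. Of the 211 features beyond 2-fold higher only with the control library, 75 had a mean under 1 CPM in the other iPSM libraries. The doxycycline-treated libraries, other samples of the same lines, shared 11983 of the 14324 calls, with none of opposite sign. The counts of list members are to be read against these shares, and a count near them does not set a list apart.

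The direction of change went with the length of the gene. Counts were made over whole gene bodies, introns included, so unspliced RNA of long genes is counted too. Among 10651 genes with a mean over 8 CPM, Spearman's rho between the log2 fold change and the gene-body length was 0.46 across genes, which are not independent replicates. The 344 genes of up to 2 kb had a median log2 fold change of -0.67, the 2990 genes of 20 to 50 kb one of -0.01, and the 555 genes over 200 kb one of 1.46. Of the genes over 200 kb 56.4% were beyond 2-fold higher, against 2.04% of those up to 2 kb. The slope was alike without the iPSM control library (rho 0.44), without ESC clones 6 and 7 (0.45) and in the doxycycline-treated libraries (0.43), and its cause was not tested. An added fit with offsets for gene-body length called 7539 higher and 6652 lower and shared 5984 and 5694 calls with the fit above. With the offsets 210 of the higher and 29 of the lower calls passed in the opposite direction. Calls whose sign turned without passing are not in these counts. List counts under these offsets are given where they moved by 2 genes or more.

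**Figure D2:**
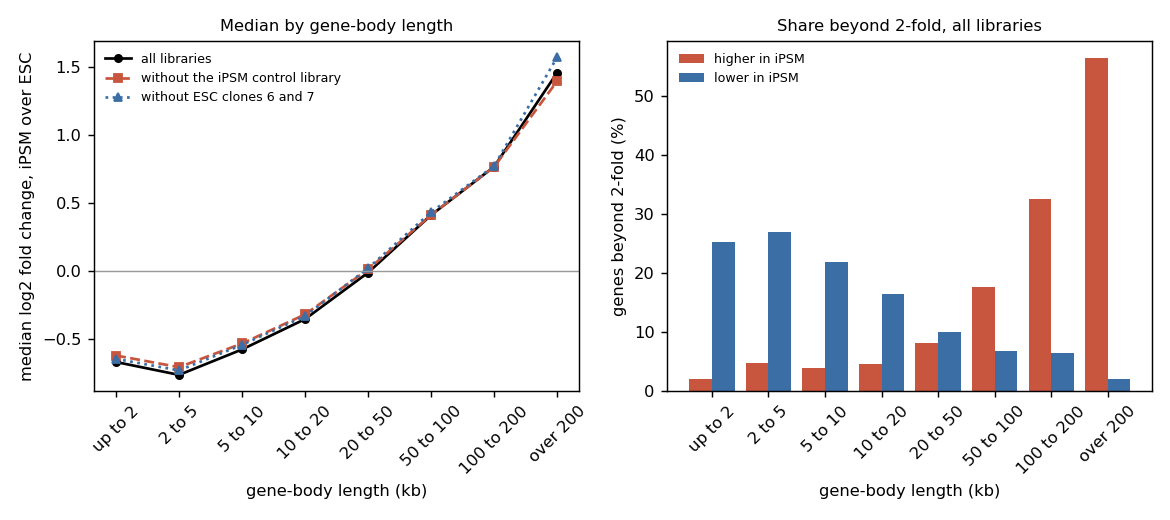
Left, median log2 fold change of iPSM over ESC (vertical axis) for genes with a mean over 8 CPM in 8 classes of gene-body length in kb (horizontal axis), with all libraries and with libraries left out. Right, the share of genes in each class beyond 2-fold higher (red) or lower (blue); the median climbs from -0.67 in the shortest class to 1.46 in the longest.

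Genes of the pluripotency network were lower in iPSM almost without exception. Of 13 core pluripotency genes all 13 were lower and 10 were beyond 2-fold, or 9 without the iPSM control library, with a median log2 fold change of -2.45. Tdh, the threonine dehydrogenase on which mouse ESC depend, fell from 390.0 ± 57.5 CPM in ESC to 31.4 ± 7.04 CPM in iPSM. Dppa4, Dppa2 and Utf1, chromatin factors of the pluripotent state, were lower, with log2 fold changes of -3.25, -3.10 and -3.05. The smallest difference of the list was that of Lin28a, an RNA-binding protein that blocks let-7, at 782 ± 53.9 CPM in ESC and 450.4 ± 65.4 CPM in iPSM (log2 fold change -0.80, adjusted p = 2.01e-05, edgeR).

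Of 21 naive pluripotency genes 19 were lower, 18 of them beyond 2-fold, and the median log2 fold change was -2.86. Spp1, the secreted protein osteopontin, was at 431, 603, 769, 617 and 1255 CPM in ESC and at 4.05, 7.74, 5.73, 7.01 and 6.26 CPM in iPSM. ESC clone 6 was the highest library, and the log2 fold change was -6.90 with and -6.49 without ESC clones 6 and 7. Dppa3, a maternal factor that guards DNA methylation, fell from 98.9 ± 24.6 to 1.62 ± 0.770 CPM. Nr0b1, a nuclear receptor cofactor, fell from 122 ± 39.5 to 2.80 ± 0.731 CPM, and Tcl1, an AKT coactivator, from 21.5 ± 3.12 to 0.748 ± 0.347 CPM. The 1 member that was higher in iPSM was Gbx2, a homeobox gene also used in the posterior embryo, at 11.6 ± 3.72 CPM in ESC and 28.01 ± 7.89 CPM in iPSM (log2 fold change 1.27, adjusted p = 4.34e-04, edgeR). Klf5 did not pass, at 43.6 ± 7.12 and 36.7 ± 10.1 CPM.

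Primed pluripotency genes, which mark the later epiblast, were also mostly lower: 10 of 14 tested were lower, 6 beyond 2-fold, and 1 was higher. Foxd3 was lower, with a log2 fold change of -6.41 (19.7 ± 1.87 against 0.228 ± 0.156 CPM), and Tdgf1, the NODAL co-receptor Cripto, had one of -4.35. Pou3f1 and the de novo methyltransferase Dnmt3b were lower, with log2 fold changes of -3.52 and -2.47. Fgf5, the classical epiblast marker, was the 1 higher gene, at 3.09 ± 1.65 CPM in ESC and 9.05 ± 2.10 CPM in iPSM. With length offsets 2 were higher and 8 lower.

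A microRNA cluster that belongs to the same network was covered as host RNA. The reads come from total RNA and lie over hairpins, so they count the primary transcript and not the mature microRNA; these features were chosen after their values were seen. The sequences, from RefSeq, show why the families belong together, with the seed (bases 2 to 8) in capitals.
miR-290a-3p: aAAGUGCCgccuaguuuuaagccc
miR-291a-3p: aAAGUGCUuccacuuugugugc
miR-291b-3p: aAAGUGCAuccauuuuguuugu
miR-293-3p: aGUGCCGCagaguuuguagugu
miR-294-3p: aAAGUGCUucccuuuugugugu
miR-295-3p: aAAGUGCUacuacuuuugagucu
miR-302b-3p: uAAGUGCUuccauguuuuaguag
miR-302d-3p: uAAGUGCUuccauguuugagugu
miR-10a-5p: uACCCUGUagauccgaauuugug
miR-196a-5p: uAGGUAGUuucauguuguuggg
Of these 10, 5 (miR-291a, miR-294, miR-295, miR-302b and miR-302d) share the seed AAGUGCU, and 7 share its leading bases AAGUGC. The miR-290 to miR-295 cluster lies at chr7:3218626-3220841 (mm10). Of its 9 annotated hairpins the 7 on the plus strand were tested, and all 7 were lower and beyond 2-fold, by 8.69- to 17.5-fold (median log2 fold change -3.30). They lie close together on 1 strand and are not independent observations. Mir290b and Mir292b lie on the minus strand, had 4 and 1 counts over the ESC group and were not tested. Mir293 had 566 to 743 counts per ESC library and 28 to 61 per iPSM library. The miR-302 hairpins, which sit in another cluster on chr3 with the same seed, differed less: Mir302b had a log2 fold change of -1.04 (adjusted p = 0.0416, edgeR) that did not pass without the iPSM control library (-0.87, adjusted p = 0.0914), and Mir302a had a log2 fold change of -0.78 (adjusted p = 0.143). The difference between the clusters was not tested. The hairpins miR-10a and miR-196a-1 lie inside the Hoxb cluster on chr11. Mir10a had no count in any ESC library and 7 to 11 in each iPSM library, at least 17.6-fold higher with 3 counts over the group as the floor. Mir196a-1 had 0 to 2 counts per ESC and 5 to 8 per iPSM library. Neither was tested.

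Primitive streak and caudal epiblast genes, the programme of the precursor cells, were higher almost throughout. Of 15 tested 13 were higher, 12 of them beyond 2-fold, and none was lower, with a median log2 fold change of 4.68. Foxb1 had 2 counts over the ESC group and 2688 over the iPSM group, a ratio of 1540 (95% counting interval 425.9 to 12720). Its log2 fold change was 9.93, and 12.02 without ESC clone 1. Foxb1 passed the filter on low counts through iPSM, so its direction was not free to differ. Nkx1-2, a marker of caudal lateral epiblast, was at 0.967, 0.994, 4.79, 0.698 and 0.494 CPM in ESC and at 140.3, 146, 183, 128 and 155 CPM in iPSM. ESC clone 7 was the highest of its group for Nkx1-2, as for T, and the groups were far apart (log2 fold change 6.53, and 7.55 without clone 7). The caudal homeobox genes Cdx1 and Cdx4, which switch on Hox genes, went from 1.28 ± 0.738 to 98.9 ± 9.01 CPM and from 0.439 ± 0.160 to 24.97 ± 5.12 CPM. With length offsets 14 of 15 were higher.

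Of 25 presomitic mesoderm genes tested, 17 were higher, 16 of them beyond 2-fold, and the median was 3.62. Some members were near 0 in ESC (means of 0.124 CPM for Hes7, 0.0311 for Msgn1 and 0.0369 for Hoxb1). Those passed the filter on low counts through iPSM, so their direction was not free to differ. Hoxb1, an early Hox gene of the streak, was at 0, 0.119, 0.0393, 0.0258 and 0 CPM in ESC and at 23.9, 19.2, 13.8, 26.2 and 21.1 CPM in iPSM (log2 fold change 8.94, and 10.02 without ESC clone 1). Rspo3, a secreted enhancer of Wnt signalling, went from 2.56 ± 1.67 to 252.3 ± 101 CPM, and Dkk1, a Wnt inhibitor that cycles with the clock, from 0.252 ± 0.250 to 21.9 ± 7.83 CPM. The log2 fold change of Rspo3 was 6.61, or 7.47 without ESC clones 6 and 7, and that of Dkk1 was 6.38, or 7.16 without clone 7. The Notch ligands Dll1 and Dll3 were higher, with log2 fold changes of 4.45 and 3.04. The 1 lower member was Mesp2, which sets the next segment border at the front of the tissue, at 0.592 ± 0.357 CPM in ESC and 0.0919 ± 0.0730 CPM in iPSM. It is named after its values were seen, since its levels were under 1 CPM, and without ESC clones 6 and 7 its edgeR adjusted p was 0.0538. With length offsets 20 were higher and 2 lower.

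The iPSM libraries differed among themselves in this list more than in the streak list. Of the 17 higher genes, 12 were lowest in clone 12, whose median level was 0.533 of the group mean, and 9 were highest in the control library, with a median of 1.28. For Dll1 the libraries held 218, 46.5, 144, 139 and 129 CPM, and for Rspo3 379.9, 115, 199, 263 and 304 CPM. Of the 13 streak genes that were higher, none was lowest in clone 12. The control library was also lowest for 9 of the 13 core pluripotency genes (median 0.682 of the group mean), and Clock/Bmal1DN clone 7 was highest for 7 of them (1.22). These orders are descriptions of 5 single libraries and were not tested.

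Somite genes, which come on after segmentation, moved in both directions. Of 22 on the list 14 were tested: 5 were higher and 5 lower, 4 and 5 of them beyond 2-fold, with a median of -0.23. The counts higher and lower were near the shares of all features (35.6% and 35.8%), so they do not set this list apart. Aldh1a2, the retinoic acid synthase of somites and anterior presomitic mesoderm, was at 0.943, 1.65, 2.30, 1.78 and 1.46 CPM in ESC and at 182, 19.7, 72.2, 113 and 89.1 CPM in iPSM. Pax3 and Pax7, factors of the dermomyotome, reached only 1.22 ± 1.19 and 1.31 ± 0.786 CPM in iPSM. Most of the Pax3 mean came from the control library, at 3.33 CPM against at most 0.790 in the others, and the log2 fold change was 3.67 with it and 2.86 without it. Tcf15, needed for epithelial somites, fell from 30.4 ± 7.15 to 3.07 ± 0.610 CPM, and Ripply1, which ends Tbx6 activity, from 3.80 ± 0.893 to 0.354 ± 0.0329 CPM. Tbx18 and Twist1 were lower, with log2 fold changes of -4.34 and -2.62, and of -3.10 and -2.13 without ESC clones 6 and 7 (-3.71 for Tbx18 without clone 6 alone).

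Notch signalling was examined by the roles of its genes. Among 10 ligands and receptors tested 4 were higher and 2 lower, with a median of 0.45. Notch1, the main receptor of the presomitic mesoderm, was at 32.3, 31.6, 19.6, 24.9 and 22.3 CPM in ESC and at 161, 63.5, 97.9, 118 and 103 CPM in iPSM, without overlap (log2 fold change 2.06, SE 0.22). Jag2, a ligand, was lower, with a log2 fold change of -2.23 (33.1 ± 4.72 against 7.07 ± 1.19 CPM). The log2 fold change of Notch2, a gene of 137 kb, was 0.53 and passed, and with length offsets it was -0.28 and passed as lower. The 3 genes beyond 2-fold higher were Dll1, Dll3 and Notch1.

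Of 20 Notch modifiers and cofactors 10 were higher and 7 lower, 6 and 2 of them beyond 2-fold. The 6 became 2 with length offsets and 4 without the iPSM control library or without ESC clones 6 and 7, and with length offsets 10 were higher and 5 lower. Maml3, a coactivator of the Notch complex, went from 2.93 ± 0.351 to 142 ± 65.7 CPM, and its log2 fold change was 5.59, or 4.11 with length offsets (its gene spans 419 kb). Maml2, of 411 kb, was higher, with a log2 fold change of 1.90, and did not pass with length offsets (0.46, adjusted p = 0.11, edgeR). Adam10, the protease that frees the receptor, was higher, with a log2 fold change of 2.67. Mfng, a glycosyltransferase of the Fringe family, and Mib2, a ligase for ligands, were lower, with log2 fold changes of -2.02 and -1.86. Lfng, the Fringe gene that cycles in the clock, was at 14.9, 13.6, 14.6, 15.3 and 11.1 CPM in ESC and at 28.7, 7.17, 18.8, 18.9 and 20.8 CPM in iPSM. The groups overlapped and it did not pass (log2 fold change 0.44, adjusted p = 0.157, edgeR). Clone 12 was again the lowest, and without it Lfng passed at a log2 fold change of 0.66 (adjusted p = 0.00261, edgeR). It also passed with length offsets, at 0.93 (adjusted p = 0.0127, edgeR).

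Of 13 Notch targets 6 were higher and 3 lower, with a median of 0.12, and with length offsets 9 were higher and 3 lower, with a median of 0.73. Beside Hes7, Nrarp, a feedback inhibitor of Notch, went from 3.20 ± 0.233 to 23.3 ± 11.8 CPM. Hes5, the target used in neural tissue, reached 1.03 ± 0.610 CPM, from 0.333 ± 0.320, and lost its call without ESC clones 6 and 7 (edgeR adjusted p = 0.11), without ESC clone 1 (0.0541) or without iPSM clone 20 (0.0676). Its log2 fold change was 1.64, and 2.40 without the ESC control library. Dtx1 and Hes6 were lower, with log2 fold changes of -3.35 and -1.37. Hes1, which also cycles in presomitic mesoderm, was at 8.41, 10.7, 18.7, 10.1 and 24.2 CPM in ESC and at 16.2, 11.3, 18.6, 13.5 and 16.4 CPM in iPSM and did not pass (log2 fold change 0.07). Without ESC clones 6 and 7 it passed at 0.63, and with length offsets at 0.74 (adjusted p = 0.0212, edgeR).

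Wnt signalling was examined in the same way. Of 21 ligands and enhancers tested 8 were higher and 5 lower. Wnt3a, the tail bud ligand, was at 2.85, 2.44, 1.92, 2.14 and 1.36 CPM in ESC and at 78.9, 56.7, 76.1, 77.5 and 82.9 CPM in iPSM. Clone 12 lay below the other iPSM libraries, and all 5 were far above the ESC libraries. Wnt8a and Wnt5b went from 4.17 ± 1.50 to 143 ± 49.1 CPM and from 5.89 ± 2.45 to 93.8 ± 22.5 CPM. Wnt7b and Wnt4 were lower, with log2 fold changes of -3.56 and -2.70.

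Of 19 Wnt receptors and their regulators 12 were higher and 5 lower, with a median of 1.32. With length offsets 10 were higher and 5 lower, with a median of 0.75. Fzd10 went from 15.9 ± 4.95 to 138 ± 20.5 CPM, and Ror2, the receptor for noncanonical Wnt ligands, from 20.7 ± 2.32 to 146 ± 41.9 CPM. Znrf3 and Rnf43, ligases that remove Frizzled receptors and are themselves Wnt targets, were higher, with log2 fold changes of 2.75 and 2.26. Fzd9, Fzd5 and Fzd7 were lower, with log2 fold changes of -3.37, -2.86 and -1.56, so the Frizzled genes differed in direction.

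Among 18 Wnt targets and inhibitors 11 were higher and 4 lower, with a median of 1.25. Nkd1, an inhibitor induced by Wnt, went from 1.41 ± 0.310 to 83.4 ± 24.4 CPM, and the nuclear effector Lef1 from 11.3 ± 3.36 to 213 ± 73.9 CPM. Myc and Ccnd1, also known as Wnt targets, were lower, with log2 fold changes of -2.24 and -1.83.

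FGF ligands and receptors differed in which member was used. Of 16 tested 9 were higher, 8 beyond 2-fold, and 2 lower. Fgf4, the ligand by which ESC drive their own exit from pluripotency, was at 199, 246, 209.6, 254 and 218 CPM in ESC and at 40.2, 13.8, 30.98, 19.6 and 25.1 CPM in iPSM. Fgf8, the ligand of the tail bud, was at 1.76, 2.03, 6.24, 0.749 and 0.941 CPM in ESC and at 56.6, 41.5, 60.8, 49.7 and 58.1 CPM in iPSM. ESC clone 7 was the highest ESC library for Fgf8, as for T and Nkx1-2 (log2 fold change 4.49, and 5.26 without it). Fgf3, Fgf9 and Fgf20 were higher, with log2 fold changes of 3.05, 3.66 and 5.78, and the receptor Fgfr2 was lower, with a log2 fold change of -2.05.

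Of 16 FGF and MAPK feedback genes 8 were higher and 6 lower, 4 and 2 beyond 2-fold, with a median of 0.23. Il17rd (Sef) and Spred2, inhibitors of the pathway, were higher, with log2 fold changes of 2.43 and 2.33, and the ETS factor Etv1 had one of 1.86. Dusp14 and Spry1 were lower, with log2 fold changes of -1.69 and -1.51. Dusp6, the phosphatase often read as a marker of FGF activity, was at 177 ± 10.7 CPM in ESC and 153 ± 35.8 CPM in iPSM and did not pass, but passed as higher with length offsets (log2 fold change 0.44, adjusted p = 0.0278, edgeR). Without the iPSM control library 7 of the list were higher and 5 lower, and with length offsets 10 and 4.

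Retinoic acid, made by the somites, opposes FGF at the front of the presomitic mesoderm. Of 16 genes tested 8 were higher, all beyond 2-fold, and 4 lower. Stra6, the receptor for retinol uptake, went from 0.198 ± 0.232 to 12.8 ± 2.60 CPM (log2 fold change 6.03, and 6.99 without the ESC control library). The binding proteins Crabp1 and Crabp2 were at 90.7, 22.2, 123, 29.9 and 51.5 and at 143, 80.6, 199, 102 and 133 CPM in iPSM, with ESC means of 6.004 and 19.3 CPM. For Crabp1 the iPSM libraries spread widely, yet the lowest lay above the ESC mean. The receptor Rarg and the synthase Aldh1a3 were lower, with log2 fold changes of -1.87 and -2.95.

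BMP and TGF-beta genes went both ways, with 9 of 27 higher and 14 lower and a median of -0.91. The count higher was near the share of all features (35.6%), and the count lower was above theirs (35.8%). Bmp7 and Gdf11, ligands of the tail bud, went from 1.82 ± 0.559 to 15.7 ± 2.67 CPM and from 4.17 ± 1.19 to 29.5 ± 6.61 CPM. Bmp5 was higher, with a log2 fold change of 5.49 (6.72 without ESC clones 6 and 7). The activin subunit gene Inhbb was lower, with a log2 fold change of -5.50. Inhba, the other activin subunit, was at 28.6, 54.7, 183, 73.1 and 275 CPM in ESC and at 0.403, 0.0370, 0.0865, 0 and 0.0385 CPM in iPSM. It was highest in ESC clones 6 and 7, and its log2 fold change was -10.10 with and -8.88 without them, and -11.45 without the iPSM control library. Grem1, a BMP antagonist, followed the same order (2.88, 8.85, 24.6, 8.86 and 42.96 CPM in ESC), with log2 fold changes of -8.50 with and -7.15 without those clones, -7.87 without clone 6 alone, and -9.56 without the iPSM control library.

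**Figure D3:**
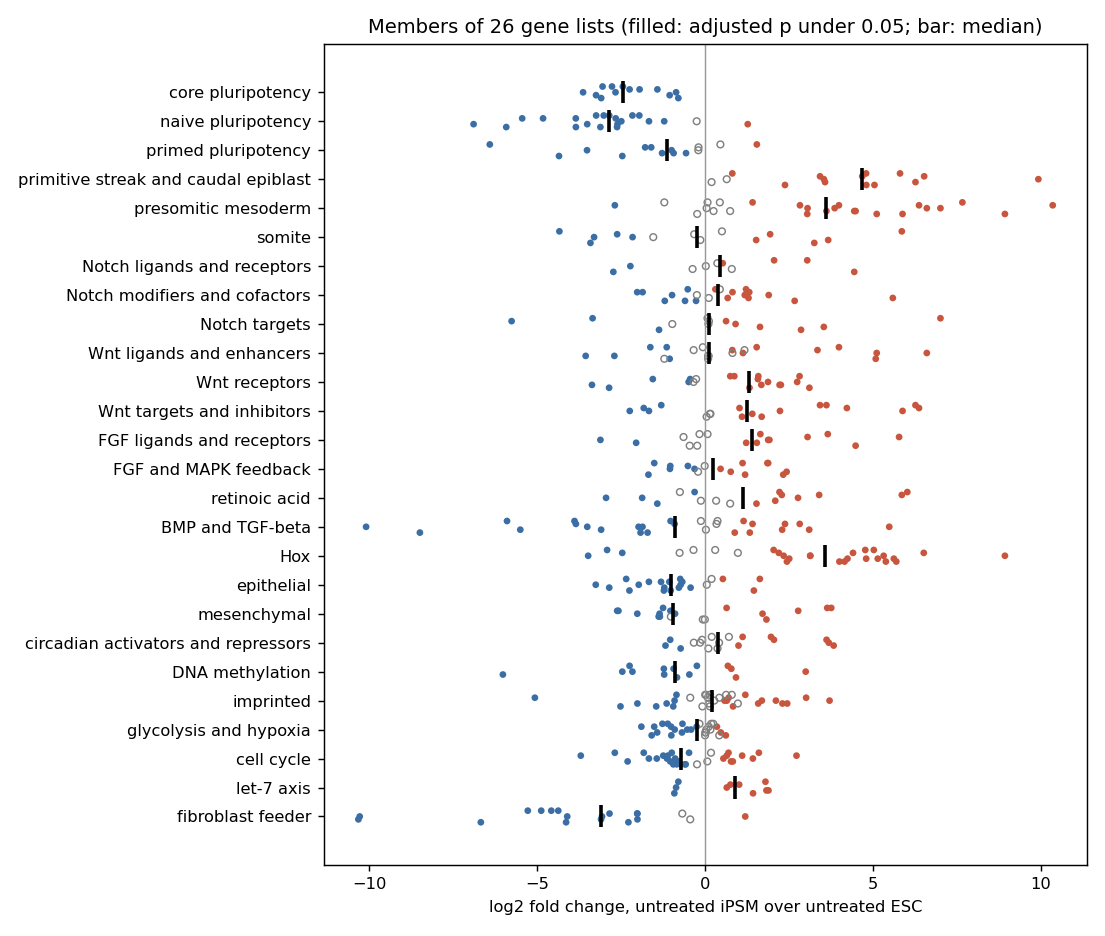
Log2 fold change of iPSM over ESC (horizontal axis) for each tested member of 26 gene lists (vertical axis), with filled points for an adjusted p under 0.05, open points otherwise and a bar at each list's median. Pluripotency lists lie to the left (medians -2.45 and -2.86), streak and presomitic mesoderm lists to the right (4.68 and 3.62), and the signalling lists straddle 0.

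Hox genes, which give cells their position along the body axis, were tested for 28 of 39 members. Of these 21 were higher, 20 beyond 2-fold (18 without the iPSM control library), and 3 lower, with a median of 3.57. Beside Hoxb1, Hoxa2 was at 0, 0, 0.0589, 0.0775 and 0.188 CPM in ESC and at 8.48, 4.49, 6.92, 4.005 and 6.24 CPM in iPSM. Hoxd4 and Hoxd3 were higher, with log2 fold changes of 5.70 and 5.62. Without ESC clones 6 and 7 Hoxa2, Hoxd4 and Hoxd3 were at 7.85, 6.84 and 6.92, and Hoxa2, at 6.52 with all libraries, was at 7.38 without clone 6 alone. The 3 lower genes were Hoxb13, Hoxc13 and Hoxd13, all of the last paralog group, with log2 fold changes of -2.92, -2.47 and -3.48; Hoxb13 and Hoxc13 were named after their values were seen. All 14 tested genes of groups 1 to 5, the anterior end of the code, were higher. Several were near 0 in ESC (means of 0.0369 CPM for Hoxb1, 0.0649 for Hoxa2 and 0.0909 for Hoxa4). Those passed the filter on low counts through iPSM, so their direction was not free to differ. Hoxb13 and Hoxc13, at 0.0680 and 0.114 CPM in iPSM, passed it through ESC. Hoxa10, at 0.795 CPM in ESC and 0.0173 CPM in iPSM, was not tested. Of the 11 genes left out of the test for low counts, 9 belonged to groups 10 to 13. The rise was not confined to groups 1 to 5. In groups 6 to 9 the higher genes included Hoxb9 (log2 fold change 4.16, and 5.27 without ESC clones 6 and 7) and Hoxb8 (5.15). Hoxb8, at 0.0694 CPM in ESC, passed the filter through iPSM, and both were named after their values were seen. The 4 tested Hox genes that did not pass also lay in groups 6 to 9. Hoxd13 was at 1.04, 1.01, 3.67, 2.04 and 3.83 CPM in the ESC libraries, and its log2 fold change without ESC clones 6 and 7 was -2.73.

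**Figure D4:**
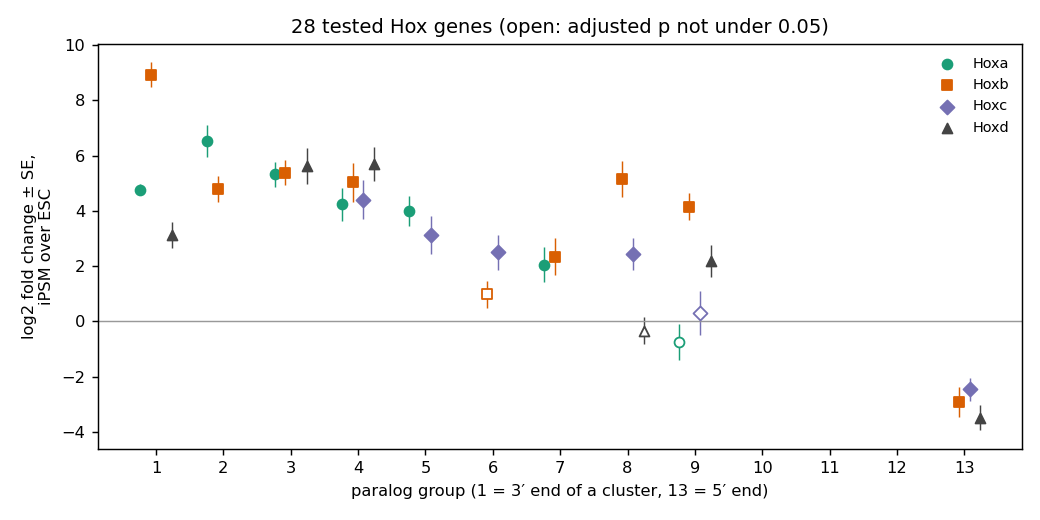
Log2 fold change of iPSM over ESC ± SE (vertical axis) for the 28 tested Hox genes by paralog group (horizontal axis), with a colour and symbol for each cluster and open symbols for genes that did not pass. The tested genes of groups 1 to 5 all lie above 0, and the 3 tested genes of group 13 lie below it.

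Epithelial and mesenchymal genes did not switch as blocks. Of 21 epithelial genes 16 were lower, 6 beyond 2-fold, and 3 were higher, with a median of -1.02, and with length offsets 13 were lower and 2 higher. Tjp3, Pkp3 and Crb3, of tight junctions, desmosomes and apical polarity, were lower, with log2 fold changes of -3.26, -2.85 and -2.35, and the splicing regulator Esrp2 had one of -2.25. The desmosome genes Dsg2 and Dsp were higher, with log2 fold changes of 1.63 and 1.46. Cdh1, E-cadherin, was at 211, 203, 227, 176 and 124 CPM in ESC and at 191, 259, 202, 234 and 191 CPM in iPSM, and the groups overlapped (log2 fold change 0.19, adjusted p = 0.266, edgeR). Of 18 mesenchymal genes 6 were higher and 9 lower. Cdh2, N-cadherin, was at 20.7, 19.02, 32.5, 19.5 and 34.2 CPM in ESC and at 404, 264, 233, 397 and 410.0 CPM in iPSM, so N-cadherin was higher while E-cadherin showed no difference beyond its spread. Zeb2, Pdgfra and Zeb1 were higher, with log2 fold changes of 3.64, 2.77 and 1.83. Vim, vimentin, was at 128, 176, 363, 159 and 642 CPM in ESC and at 99.9, 104, 112, 111 and 136 CPM in iPSM. Its highest values were in ESC clones 6 and 7, and the log2 fold change was -1.38 with and -0.47 without them. With length offsets 5 mesenchymal genes were higher and 12 lower, and without ESC clones 6 and 7, 5 were higher and 6 lower, with a median of -0.05 against -0.96 with them. Zeb2 and Pdgfra were then at log2 fold changes of 4.50 and 4.32, and without clone 6 alone Pdgfra was at 3.60.

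Among the largest rises were also Arg1, arginase, from 0.395 ± 0.385 to 169 ± 42.1 CPM, and Aplnr, the apelin receptor, from 0.162 ± 0.189 to 46.4 ± 19.97 CPM. Without ESC clone 7 their log2 fold changes went from 8.65 and 8.06 to 9.37 and 9.02. Slc44a5, a choline transporter family member, was higher, with a log2 fold change of 6.92 (5.51 with length offsets). Ftl2-ps was higher, with a log2 fold change of 10.13, but it is a near copy of the ferritin gene Ftl1 and overlaps Grik3 on its strand, so this value is uncertain.

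The largest falls went with single ESC clones. Foxs1, a forkhead gene of pericytes, had 2255 counts over the ESC group and none over the iPSM group, at least 656-fold lower with 3 counts over the group as the floor. S100a4, a fibroblast marker, was at 16.2, 34.3, 109, 32.3 and 268 CPM in ESC and at 0.0224, 0.0924, 0.130, 0.0233 and 0.0770 CPM in iPSM. Lox, which crosslinks collagen, was at 29.6, 42.3, 146, 64.5 and 245 CPM in ESC and at 0.179, 0.0924, 0, 0.0233 and 0.0963 CPM in iPSM. The matrix protein gene Mgp had 2810 and 2 counts, a ratio of 1226 (95% counting interval 339.2 to 10130). Both iPSM counts lay in the iPSM control library, so this ratio rests on it, and the log2 fold change of Mgp without that library was -12.19. Without ESC clone 6 the log2 fold changes of Mgp, S100a4 and Foxs1 went from -10.15, -10.29 and -11.86 to -9.11, -9.37 and -11.22. Of the 12 largest falls 11 were highest in ESC clone 6 and lowest in the ESC control library, and had both clone 6 and clone 7 above the other ESC libraries. Krt42, an epithelial keratin, was the exception, at 119, 64.1, 22.6, 106 and 59.05 CPM in ESC. The SD divided by the mean within ESC ran from 0.524 to 1.22 for these genes. All 12 passed without ESC clones 6 and 7, at log2 fold changes from -6.97 to -10.53.

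A list of 20 fibroblast feeder genes followed the same order. Its summed level was 486.7, 671, 1959, 843 and 3858 CPM in the ESC libraries and 194 to 212 CPM in iPSM. Of 19 tested 16 were lower, 15 beyond 2-fold, and Mmp2 was higher, with a log2 fold change of 1.20 (1.97 without ESC clones 6 and 7). In the doxycycline-treated libraries Mmp2 did not pass (0.81, adjusted p = 0.0832, edgeR). No member was at 0 in all libraries of a group. Col1a1, a collagen gene, was at 6.82, 15.8, 27.1, 12.8 and 60.8 CPM in ESC and 1.34, 0.998, 0.627, 0.955 and 1.21 CPM in iPSM, and Postn was lower, with a log2 fold change of -6.68. Without ESC clones 6 and 7 the log2 fold changes of Col1a1 and Postn were -3.54 and -5.16, against -4.58 with them for Col1a1. Without clone 6 alone they were -3.94 and -5.95, and Postn was at -7.41 without the iPSM control library. Without ESC clones 6 and 7, 14 members were lower and 2 higher. The labels say that the pHes7-luc stem cells were grown feeder-free and do not say it of the KY1.1 cells. The part of feeder cells in these differences was not tested.

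**Figure D5:**
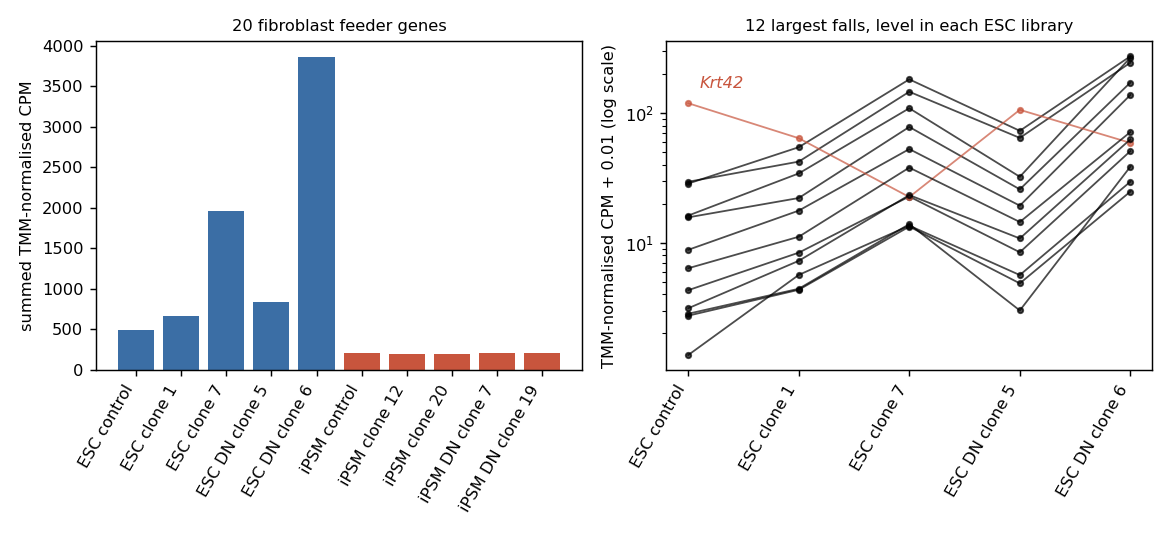
Left, summed CPM of the 20 fibroblast feeder genes in each library, with blue bars for ESC and red bars for iPSM. Right, CPM (plus 0.01, log axis) of the 12 genes with the largest falls in each ESC library, where a line joins the values of 1 gene; 11 peak in Clock/Bmal1DN clone 6, and Krt42 (red) is highest in the control library.

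Genes of other lineages were checked for other cell types in the libraries. Of 13 neural genes tested 3 were higher, Hes5 among them, and 7 lower. Nes did not pass, at 104 ± 43.2 CPM in ESC and 147 ± 17.5 CPM in iPSM. Tubb3, a neuronal tubulin, fell from 114 ± 23.7 to 4.83 ± 0.718 CPM, and Olig2 had 1734 counts in ESC and 1 in iPSM, a ratio of 1513 (95% counting interval 271.3 to 59810), with the 1 count in clone 20. Of 11 blood and endothelial genes none was higher and 7 were lower, or 11 of 12 without the iPSM control library. Lateral, intermediate and cardiac mesoderm gave 2 higher and 8 lower of 14 (10 lower without the iPSM control library), endoderm 2 and 3 of 10 (4 and 3 with length offsets), neural crest 3 and 2 of 6, and notochord and node 1 and 2 of 5. Summed levels in iPSM were 11.1 to 23.1 CPM for the lateral list (62.0 to 97.4 in ESC) and 17.5 to 26.3 CPM for the blood list (68.0 to 119.5 in ESC). Other lists kept higher sums in iPSM: 129 to 176 CPM for neural (200 to 309 in ESC) and 265 to 430 CPM for notochord and node (351 to 606). Most of the neural sum in iPSM was Nes. Krt8, which was lower in iPSM, held 303.9 CPM of the notochord and node sum (486.5 in ESC). Endoderm was at 413 to 731 CPM in iPSM (114 to 531 in ESC), of which Trh, which did not pass, held 405 ± 110 CPM (237 ± 160 in ESC). Cdx2, which was higher, held 107.8 CPM of it (3.82 in ESC). These sums rest mostly on those genes and say little of the other members.

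Genes of the circadian clock went both ways in these libraries without doxycycline. Of 18 activators and repressors 7 were higher and 3 lower, and 5 were beyond 2-fold higher. The 7 are near the share of all features that were higher (35.6%), so that count does not set the list apart. With length offsets 10 were higher and 2 lower. The nuclear receptor genes Rorb and Rora, activators of Arntl, were higher, with log2 fold changes of 3.69 and 3.62, or 2.85 and 2.18 with length offsets, and Rorb was at 4.74 without ESC clones 6 and 7. The Rora gene spans 711 kb. Per3 was higher, with a log2 fold change of 2.05. Clock was at 32.2, 43.6, 64.95, 39.5 and 42.9 CPM in ESC and at 101, 90.1, 93.8, 102 and 98.3 CPM in iPSM. All iPSM libraries lay above all ESC libraries (log2 fold change 1.12, adjusted p = 2.74e-05, edgeR), and the value with length offsets was 0.55. Arntl, which encodes BMAL1, was at 42.7, 50.01, 52.9, 60.5 and 47.95 CPM in ESC and at 19.1, 51.2, 70.1, 38.1 and 60.4 CPM in iPSM. The groups overlapped and Arntl did not pass (log2 fold change -0.09, adjusted p = 0.774, edgeR), with the iPSM control library lowest of all. Reads from uninduced transgenes cannot be told apart from those of the genes themselves here. Arntl2, the paralog of Arntl, was lower, with a log2 fold change of -1.18. Of 14 circadian output genes and enzymes 6 were higher and 4 lower, where 35.6% of all features were higher and 35.8% lower.

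DNA methylation genes were mostly lower, 10 of 14, with 4 higher. Dnmt3l, a cofactor of de novo methylation, was at 426, 586, 422, 595 and 515 CPM in ESC and at 2.31, 9.41, 4.76, 13.3 and 9.27 CPM in iPSM. Tet1 and Zfp57, which remove methyl marks and guard imprints, were lower, with log2 fold changes of -2.25 and -2.16, and Tet3 was higher, with a log2 fold change of 3.00. The 2 TET genes thus differed in opposite directions. Of 19 germline genes tested 5 were higher and 9 lower (8 and 9 with length offsets, where the median went from -0.36 to 0.20), with a log2 fold change of Tdrd12, a piRNA pathway gene, of -4.26. Of 11 2-cell-like genes with a feature only 5 were tested, 4 of them near-identical Zscan4 copies, and these 5 were higher. The whole list summed to 0.508 to 1.45 CPM in ESC and 6.03 to 26.5 CPM in iPSM. The tested genes thus passed the filter on low counts through iPSM, so their shared direction was not free to differ. Zscan4d was at 7.65, 1.57, 3.22, 2.40 and 1.45 CPM in iPSM, highest in the control library, and reads may be split between the copies.

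Imprinted genes gave 12 higher and 8 lower of 34. The 12 are near the share of all features that were higher (35.6%), so that count does not set the list apart. Peg3 went from 98.2 ± 16.3 to 536 ± 51.7 CPM, Airn was higher, with a log2 fold change of 3.71 and Kcnq1ot1 had one of 2.31, and Ascl2 was lower, with a log2 fold change of -5.07. Meg3, a noncoding RNA of the Dlk1-Dio3 domain, was at 19.8, 1.57, 2.94, 24.4 and 26.6 CPM in ESC and at 158, 125, 99.5, 119.9 and 103 CPM in iPSM. The low ESC values were those of the Clock/Bmal1 clones 1 and 7.

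The iPSM-ESC difference was also compared between the Clock/Bmal1 and the Clock/Bmal1DN clones, 2 of each per cell type, with the transgenes uninduced. Of 20047 features 4 (0.02%) passed, and 655 had an unadjusted p under 0.05. The 4 were Meg3 (difference of log2 fold changes 3.51, adjusted p = 0.038), Mirg (4.51, adjusted p = 0.0173), Gm37899 (3.51, adjusted p = 0.0494) and B830012L14Rik (3.96, adjusted p = 0.0173, edgeR). Meg3 and Mirg belong to the same imprinted domain. Mirg was at 65.0, 4.07, 6.71, 107 and 145 CPM in ESC and at 114, 104, 158, 147 and 122 CPM in iPSM. With 1 clone left out of the edgeR fit at a time the count ran from 0 to 6. It was 0 without iPSM Clock/Bmal1DN clone 7 or 19 (334 and 492 features at an unadjusted p under 0.05), 1 without iPSM clone 20, and 2 without ESC clone 5 or 6. In each of the 4 the ESC Clock/Bmal1 clones were the low libraries, and the iPSM libraries of both kinds lay close together.

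Metabolic and growth genes were examined as well. Of 27 glycolysis and hypoxia genes 14 were lower, 5 beyond 2-fold, and 3 higher, with a median of -0.25. Pkm, the pyruvate kinase of proliferating cells, was at 5952 ± 324 CPM in ESC and 1975 ± 311 CPM in iPSM, and Pgam1 and Hk2 were lower, with log2 fold changes of -1.90 and -1.51. Gapdh, often used as a reference gene, was higher, with a log2 fold change of 0.62, and its edgeR adjusted p without ESC clones 6 and 7 was 0.0709. With length offsets 9 of the list were higher and 13 lower. Of 31 cell cycle genes 19 were lower and 9 higher (16 and 9 with length offsets), with log2 fold changes of -2.31 for Ccne1, 2.73 for Ccnd2 (3.74 without ESC clones 6 and 7) and 1.60 for Rb1, the retinoblastoma gene. The cyclin D genes Ccnd1 and Ccnd2 thus differed in direction.

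Of 10 tested targets and regulators of the let-7 microRNA family 7 were higher and 3 lower. The let-7 targets Hmga2, Plagl2 and Igf2bp2 were higher, with log2 fold changes of 1.83 (2.50 without ESC clones 6 and 7), 1.89 and 1.80, and Nr6a1, a receptor of the trunk programme, had one of 1.43. Lin28a and Trim71 were lower, with log2 fold changes of -0.80 and -0.86. With length offsets 6 were higher and 3 lower.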

How the data were processed

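Total RNA was sequenced in 20 libraries, of which the 10 without doxycycline were compared, 5 per cell type. Per the labels' protocols, libraries were made with a stranded total RNA kit and sequenced as pairs; the submitters' processing notes name bcl2fastq, STAR (2.7.2a) and HOMER, and the build is mm10. The deposited tables hold 55421 features with expected counts over gene bodies, in steps of 0.5 (18.2% of untreated values were not whole), and RPKM values that the authors scaled by gene-body length. RPKM recomputed from the counts within 1% plus 0.001 for 100% of entries and served no test.

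Counts were rounded to whole numbers, filtered with filterByExpr by cell type, scaled with TMM and tested with edgeR 4.0.16 (R 4.3.3; quasi-likelihood test, two-sided, Benjamini-Hochberg over all features tested, threshold 0.05; glmTreat against 2-fold). Each SE was taken from the F statistic, as the absolute log2 fold change over √F. For 113 repeated symbols the longest gene body was used. Library measures were compared with exact permutation tests in SciPy 1.17.1. Alternatives were other scaling factors (RLE, upper quartile), no filter, a term for the line, removal of RNA polymerase III and mitochondrial features, DESeq2 1.42.0, the doxycycline-treated libraries and leaving out each library. Offsets for gene-body length and leaving out ESC clones 6 and 7 were chosen after seeing the data. The fits were tested on simulated data.

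Of the untreated libraries, all 20 pairs within a cell type differed by more than sampling noise (chi-square per degree of freedom over 1). Counting intervals, ratios and floors (3 counts) cover counting error only, since reads without molecular identifiers, which the sources used here do not name, are not independent molecules. CPM is not scaled by length, so levels are not compared between genes. The counts are gene-body counts, in which overlapping genes, near copies and unspliced RNA are not told apart; the strand setting is not given in the sources used here.

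Members and gene lists were chosen with earlier results of these data known. Always named were Pou5f1, Nanog, T, Hes7, Sox2, Tbx6, Msgn1, Hprt, Clock and Arntl. Other genes were drawn from, but do not cover, 2 kinds of set. These were the 12 largest rises and falls beyond 2-fold without overlap, with at least 10 CPM and a settled symbol. Per list they were up to 4 genes passing in each direction (at least 1 CPM) and up to 2 not passing, by level. Exceptions are marked in the text. Sequences came from RefSeq tables on GRCm38.p6.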

Additional observations from a re-analysis of the deposited data

Results flagged for a closer look

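Within a cell type, 285 sets of 5 values were examined for a library that stood far from the other 4, measured as its gap to the nearest library divided by the whole range of the 5. Of these, 23 (8.07%) stood apart, by a cut-off that about 1 in 20 independent sets of normal values pass by chance. The sets came from the same libraries and were not shown to be normal, so that rate is no reference for the 8.07%. The cause was not tested for any of them.

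Among the ESC libraries, Clock/Bmal1 clone 7 was the highest for 7 genes, most of them streak or signalling genes that were higher in iPSM. The ratio was 0.884 for Nkx1-2, 0.835 for Fgf5, 0.779 for Wnt5b, 0.767 for Ripply1 and for Fgf8, 0.735 for Fzd10 and 0.721 for Wnt4. For Nkx1-2 that clone held 4.79 CPM and the others at most 0.994, and for Fgf8 it held 6.24 CPM and the others at most 2.03. Clock/Bmal1DN clone 6 was highest for Zeb1 (0.87) and lowest for Hk2 (0.813). The ESC control library was highest for Gapdh (0.736), at 863 CPM against 427 to 542, and for Igf2bp2 (0.711), and it had the fewest features with reads (0.787).

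The iPSM control library was lowest for Pou5f1 (0.777) and highest for Pax3 (0.887), Zscan4d (0.714) and Fgf9 (0.712). It also held the most features with reads (0.808) and the most counts over olfactory and vomeronasal receptor genes (0.877). Clone 12 was highest for Twist1 (0.711) and lowest for Wnt3a (0.74). Clone 20 was highest for Ccnd1 (0.737) and for the share of counts in the 10 highest features (0.903), at 6.05% against 4.55 to 4.70%. It was lowest for Rb1 (0.763), at 19.2 CPM against 38.1 to 43.9.

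Meg3 (3.51), Mirg (4.51), Gm37899 (3.51) and B830012L14Rik (3.96) differed in their iPSM-ESC log2 fold change between the Clock/Bmal1 and Clock/Bmal1DN clones by a test of the difference itself. B830012L14Rik was at 29.9, 2.48, 3.41, 48.5 and 67.8 CPM in ESC and at 72.6 to 117 CPM in iPSM.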

How the results depend on the processing

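No paired analysis was possible because the same replicate number names different clones, or control lines, in the 2 cell types, so a replicate block has no meaning here. The count of features that differed stayed within 1.5 times of 14324 under each alternative run, from 13289 in the doxycycline-treated libraries to 15934 with no filter, and from 13813 to 14933 with 1 library left out. Of 3057 alternative values for 161 of the named genes, 3025 kept direction and call, and 146 of these genes did so throughout. The exceptions that reversed were Klf5 (0.063), Notch2 (-0.28), Dusp6 (0.44) and Cdh1 (-0.23) with length offsets, Lfng (-0.28) and Cdh1 (-0.39) in the doxycycline-treated libraries, Hes1, which ran from -0.077 to 0.33 with 1 library left out (-0.077, -0.029 and -0.043 without the ESC control, clone 1 or clone 5), and Arntl, from -0.24 to 0.13 (0.13 without the iPSM control library). Clock lost its call in the doxycycline-treated libraries (0.77, adjusted p = 0.414, edgeR), in some of which doxycycline switches on the Clock transgene. Notch2, Gapdh and Mmp2 also lost their calls there, Maml2 lost its call with length offsets, and Mesp2, Hes5 and Gapdh lost theirs without ESC clones 6 and 7. Lfng and Hes1 gained calls as higher with length offsets, as Notch2 and Dusp6 did in their turned directions. The 4 features that differed between the clones became 0 to 6 with 1 clone left out. The difference in olfactory and vomeronasal receptor counts between the cell types, 43.4 of each 1000000 counts (exact permutation test, adjusted p = 0.0397), ran from 15.23 to 53.96 with 1 library left out and was no longer past the threshold in 6 of 10 cases. The difference in features with reads, 3128, ran from 1240 to 3900 and passed only without iPSM clone 20. The cause of these changes was not tested. Depth limits genes with few counts: the 11 Hox genes not tested did not pass the filter on low counts, which does not show that they are absent.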
